A study of Mus musculus with 15 samples.

Results

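The 10 genes described here encode the core of eicosanoid signalling: Pla2g4a, Ptgs1, Ptgs2, Ptges, Ptges2, Hpgd, Ptger2, Ptger4, Alox5 and Alox5ap. They were chosen by name, for their place in the prostaglandin and leukotriene pathways, from 55335 genes with a value in each library. Earlier results of these data were known at that choice, so the shares of all genes set beside members do not test the list. RNA had been sequenced from the colon of 15 mice in 3 groups of 5, and all 15 mice had received dextran sulfate sodium (DSS), a polymer that injures the colon lining. Mice of the group DSS carried no other treatment in their label, mice of DSS_ICB also received immune checkpoint blockade (ICB, which releases T cells from inhibition), and mice of DSS_ICB_Fp received the blockade and a gavage of the gut bacterium F. prausnitzii. The labels give no strain, sex, age, antibody, control antibody, control gavage, time of sampling or cage, so blockade and gavage cannot be told apart from their procedures or from the cage, and no group without DSS was measured. The unit, FPKM, is a number of fragments scaled to the length of the transcript and to the size of the library, and so gives a level per transcript length.

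Eicosanoids are lipid signals made from arachidonic acid, which phospholipase A2 cuts out of membranes. Cyclooxygenases turn it into prostaglandin H2, from which prostaglandin E synthases make prostaglandin E2 (PGE2), and 5-lipoxygenase with its activating protein turns it into leukotrienes, which attract and activate leukocytes. In the colon, PGE2 acts through receptors on epithelium, stroma and immune cells in crypt repair and in inflammation, and the epithelial enzyme encoded by Hpgd breaks it down.

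The promoters of 3 members are shown because these genes make and remove PGE2: Ptgs2 and Ptges had group differences of the opposite sign to those of Hpgd. Each sequence runs from 250 bases before to 30 bases after the start of transcription, 5′ to 3′ on the strand of the gene, from RefSeq on GRCm38.p6. Capitals mark matches to the motifs searched. The Ptgs2 window is chr1:150099781-150100060 on the plus strand, the Ptges window is chr2:30903268-30903547 on the minus strand, and the Hpgd window is chr8:56294302-56294581 on the plus strand.
Ptgs2: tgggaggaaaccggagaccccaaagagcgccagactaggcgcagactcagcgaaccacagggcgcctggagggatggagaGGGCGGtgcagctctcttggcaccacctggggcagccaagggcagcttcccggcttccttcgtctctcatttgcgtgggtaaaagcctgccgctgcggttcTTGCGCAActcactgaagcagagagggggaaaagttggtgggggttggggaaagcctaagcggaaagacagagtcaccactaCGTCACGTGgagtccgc
Ptges: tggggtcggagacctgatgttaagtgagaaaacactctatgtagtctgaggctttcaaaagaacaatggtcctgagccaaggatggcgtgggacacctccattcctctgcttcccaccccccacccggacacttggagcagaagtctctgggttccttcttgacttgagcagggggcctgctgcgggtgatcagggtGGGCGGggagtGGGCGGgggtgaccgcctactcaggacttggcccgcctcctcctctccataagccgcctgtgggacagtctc
Hpgd: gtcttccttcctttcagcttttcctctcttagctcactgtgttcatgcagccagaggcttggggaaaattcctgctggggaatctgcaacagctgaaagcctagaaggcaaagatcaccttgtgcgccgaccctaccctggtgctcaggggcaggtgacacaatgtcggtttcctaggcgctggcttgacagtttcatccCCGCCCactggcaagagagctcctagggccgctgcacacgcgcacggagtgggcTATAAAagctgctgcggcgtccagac

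The search covered 7 motifs on both strands: the E-box CACGTG, the cyclic AMP response half-site TGACG, the C/EBP palindrome TTGCGCAA, the NF-kB core GGGANTTTC, the AP-1 site TGANTCA, the TATA box TATAAA and the GC box GGGCGG. The Ptgs2 window held the E-box at positions 17 to 22 after the RefSeq start, overlapping a half-site on the opposite strand at 14 to 18. Of 32851 RefSeq windows of this length, 6.79% held the E-box and 19.9% the half-site. Ptgs2 also held the C/EBP palindrome from -69 to -62, which 0.18% of windows held, and a GC box from -170 to -165, a motif present in 34.7%. The Ptges window held GC boxes from -53 to -48 and from -42 to -37. The Hpgd window held a GC box from -50 to -45 and TATAAA from 5 to 10 after the RefSeq start, a motif in 13.1% of windows. In the GENCODE annotation used below for gene positions, Hpgd starts at 56294585, beyond the end of this window at 56294581. TATAAA thus lies before that start. Ptges, on the minus strand, starts at 30929863 in that annotation, outside its window of 30903268 to 30903547. Of the 10 members, 9 had a window, and Alox5ap had none. No window of these 9 held the NF-kB letters (1.04% of windows) or the AP-1 letters (7.46%). Letters farther from the start were not searched. These matches describe letters and do not show that a factor was bound.

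Between 13243 and 14336 genes per library reached 1 FPKM, and depth estimated from the steps between low values was 15.39 to 25.06 M (mega) fragments. The mouse numbers only name libraries. Libraries DSS_ICB 3 and DSS_ICB 5 stood apart, with median rank correlations to the others of 0.725 and 0.864, while the lowest pair among the other 13 had 0.888. Log2 differences of single genes that involve DSS_ICB are therefore also given without these 2 libraries. Marker counts and sums, and genes described by their levels alone, are given over all 15 libraries. All 12 absorptive colonocyte markers passed the filter on low values, and their summed level was 584 FPKM in DSS_ICB 3 against 3646 to 6174 FPKM in the other 14 libraries. In DSS_ICB 3 the 8 smooth muscle markers summed to 11228 FPKM, against 819 to 3726 FPKM elsewhere, and mitochondrially encoded genes made up 33.2% of its FPKM. Across the 10 genes, the SD of log2(FPKM + 1) was largest in DSS_ICB for 10 of 10, as it was for 68.5% of the 14385 genes tested.

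Per transcript length, Hpgd was the most abundant in all 3 groups, with medians of 75.8 FPKM in DSS, 49.8 FPKM in DSS_ICB and 95.7 FPKM in DSS_ICB_Fp. In DSS and DSS_ICB_Fp its range did not overlap that of Pla2g4a, the next in order, at medians of 13.5 and 11.3 FPKM. In DSS_ICB the second place was held by Ptgs2, at a median of 16.9 FPKM and with a range that overlapped that of Hpgd. In the other groups Ptgs2 held the eighth place, at 2.78 FPKM in DSS and 1.73 FPKM in DSS_ICB_Fp. Ptges2, Alox5ap, Ptges and Ptger4 followed each other with overlapping ranges in DSS, as did Alox5ap, Ptger4, Ptges and Ptgs2 in DSS_ICB_Fp. Alox5 and Ptger2 were lowest in every group, with medians of 0.330 to 0.625 FPKM.

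**Figure D1:**
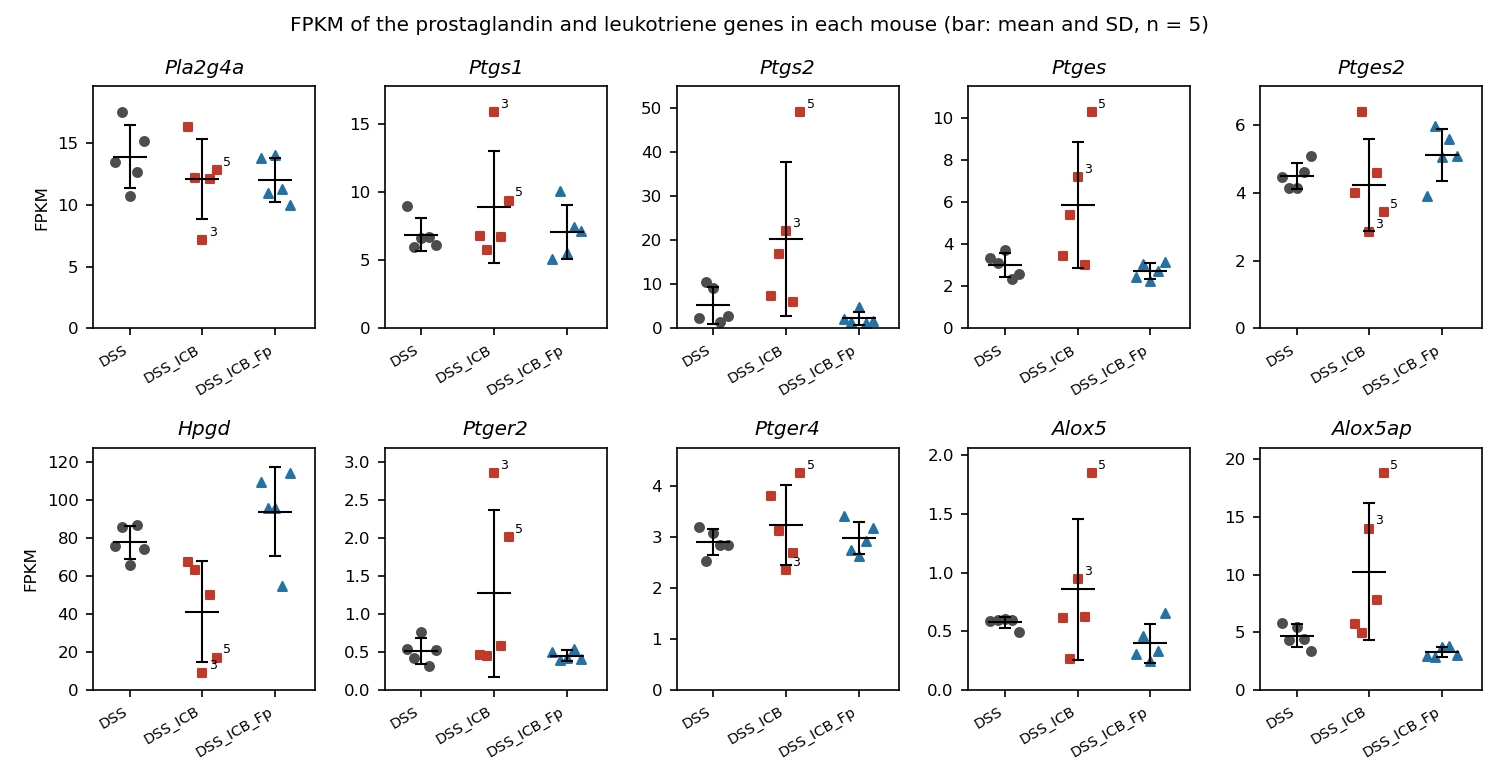
FPKM (y axis, linear, from 0) of each gene in each mouse, by group (x axis); points are mice, the horizontal bar is the mean and the whiskers are the SD (n = 5), and the numbers 3 and 5 mark DSS_ICB 3 and DSS_ICB 5. These 2 mice hold the highest Ptgs2, Ptges, Ptger2, Alox5 and Alox5ap values and the lowest Hpgd values.

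Adding checkpoint blockade to DSS is the first comparison, and adding the bacterium to both is the next. They share the DSS_ICB mice, so their values are given side by side. A test was made for the 8 members with at least 1 FPKM in at least 5 libraries, with limma on log2(FPKM + 1), a scale that understates changes of genes with low values. The threshold was an adjusted p (Benjamini-Hochberg) of 0.05 over all 14385 genes tested. None of the 8 tested members passed in DSS_ICB against DSS (0 of 8, beside 0.0209% of all genes), in DSS_ICB_Fp against DSS_ICB (0 of 8, beside 0.132%) or in DSS_ICB_Fp against DSS (0 of 8, beside 0%). The exact permutation test cannot pass after adjustment, since genes at its smallest p, 0.00794 for 252 arrangements, had adjusted p-values of 0.517, 0.233 and 0.92 in the 3 comparisons; its unadjusted p is given for single genes. With sample quality weights in limma, which count unlike libraries less, 3 of the 8 passed in DSS_ICB_Fp against DSS_ICB: Hpgd (adjusted p = 0.0401), Ptgs2 (0.0465) and Alox5ap (0.0283). The same weights passed 6.7% of all genes in that comparison. Leaving out 1 library, as given for single genes below, passed 4.1% of all genes without DSS_ICB 1, 0.931% without DSS_ICB 2, 0.518% without DSS_ICB 4 and 3.18% without DSS_ICB_Fp 4. At an unadjusted p under 0.05, DSS_ICB against DSS had 3 members higher (Ptgs2, Ptges, Alox5ap), beside 7.08% of all genes, and 1 lower (Hpgd), beside 4.22%. DSS_ICB_Fp against DSS_ICB had 1 higher (Hpgd), beside 9.34%, and 3 lower (Ptgs2, Ptges, Alox5ap), beside 12.4%. DSS_ICB_Fp against DSS had 0, beside 1.41%. The median absolute log2 difference of the 8 members was 0.47 in DSS_ICB against DSS (0.18 over all genes), 0.51 in DSS_ICB_Fp against DSS_ICB (0.22 over all genes) and 0.17 in DSS_ICB_Fp against DSS (0.11 over all genes).

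Release of arachidonic acid was represented by Pla2g4a (ENSMUSG00000056220), which encodes the calcium-dependent cytosolic phospholipase A2. Its level was 10.7 to 17.5 FPKM in DSS, 7.11 to 16.3 FPKM in DSS_ICB and 10.01 to 14.0 FPKM in DSS_ICB_Fp, so the 3 groups overlapped. The lowest value of all was in DSS_ICB 3. The log2 difference was -0.21 ± 0.18 (SE, limma adjusted p = 0.625) in DSS_ICB against DSS and 0.02 ± 0.18 (limma adjusted p = 0.958) in DSS_ICB_Fp against DSS_ICB. Without DSS_ICB 3 and DSS_ICB 5 it was -0.03 and turned to -0.16.

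Cyclooxygenase is made from a steady gene and an inducible gene. Ptgs1 (ENSMUSG00000047250), the steady form, had 6.87 ± 1.21 FPKM in DSS, 8.89 ± 4.12 FPKM in DSS_ICB and 7.06 ± 1.95 FPKM in DSS_ICB_Fp (SD, n = 5). The groups overlapped, and DSS_ICB 3 held the highest value, 15.8 FPKM, against 5.77 to 9.36 FPKM in the other DSS_ICB mice. That library also had the highest smooth muscle markers. As a share of Myh11, 1 of these markers, Ptgs1 was 1.23% in DSS_ICB 3 and 2.38% to 8.08% in the other DSS_ICB mice. It was 1.59% to 3.92% in DSS and 2.31% to 3.86% in DSS_ICB_Fp. The part of muscle in the Ptgs1 value of DSS_ICB 3 was not tested beyond this ratio. The log2 difference was 0.26 ± 0.23 (SE, limma adjusted p = 0.637) in DSS_ICB against DSS and turned to -0.08 without DSS_ICB 3 and DSS_ICB 5. Against DSS_ICB, the gavaged mice had -0.24 ± 0.23 (limma adjusted p = 0.553), and 0.09 without the 2 libraries.

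Ptgs2 (ENSMUSG00000032487), the inducible cyclooxygenase known as COX-2, lies on chromosome 1 of GRCm38 from 150100031 to 150108227. In DSS it was 2.38, 10.5, 9.24, 1.46 and 2.78 FPKM in mice 1 to 5. In DSS_ICB it was 7.47, 16.9, 22.1, 6.10 and 49.2 FPKM. In DSS_ICB_Fp it was 2.25, 1.54, 4.80, 1.27 and 1.73 FPKM. The 5 DSS_ICB mice thus all lay above the 5 gavaged mice, while DSS 2 and DSS 3 lay within the DSS_ICB range. The mean in DSS_ICB was 20.4 ± 17.4 FPKM against 5.27 ± 4.25 FPKM in DSS (SD, n = 5), 3.86 times as high. On the log2 scale the difference was 1.68 ± 0.53 (SE, limma adjusted p = 0.418), and the exact two-sided permutation test gave p = 0.0476 before and 0.554 after adjustment over all genes. It was 0.99 without DSS_ICB 3 and DSS_ICB 5 (limma adjusted p = 0.625).

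In gavaged mice the Ptgs2 mean was 2.32 ± 1.43 FPKM (SD, n = 5). The log2 difference from DSS_ICB was -2.41 ± 0.53 (SE, limma adjusted p = 0.0712), and the exact permutation p was 0.00794, the smallest it can give, or 0.233 adjusted over all genes. Leaving out DSS_ICB 1, DSS_ICB 4 or DSS_ICB_Fp 4 brought the limma adjusted p to 0.0322, 0.0367 and 0.0496, which passes. Without DSS_ICB 3 and DSS_ICB 5 the difference was -1.72 (limma adjusted p = 0.191), and a fit of these 2 groups alone gave an adjusted p of 0.212. Ptgs2 as a share of the summed FPKM of both cyclooxygenase genes had a median of 31.3% in DSS (17.9% to 63.7%), 58.3% in DSS_ICB (47.6% to 84.0%) and 19.4% in DSS_ICB_Fp (13.3% to 46.4%). By this share too, all DSS_ICB mice lay above all gavaged mice.

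Neutrophil, fibroblast, endothelial and erythroid markers moved with Ptgs2 between the groups, though not in every mouse. Of the 10 neutrophil markers 8 were tested. Of these, 7 had an unadjusted limma p under 0.05 with higher values in DSS_ICB than in DSS, beside 7.08% of all genes. After adjustment, 5 passed as lower in DSS_ICB_Fp than in DSS_ICB, beside 0.132% of all genes in either direction. The summed level of the neutrophil markers was 118 to 249 FPKM in DSS, 333 to 2120 FPKM in DSS_ICB and 111 to 220 FPKM in DSS_ICB_Fp. Ly6g made up most of that sum in DSS and in DSS_ICB_Fp. Its lowest value of all was in DSS_ICB 3, 87.2 FPKM, and its highest in DSS_ICB 5, 502 FPKM. Without Ly6g, a choice made after its values were seen, the sums were 20.6 to 57.8, 129 to 2033 and 1.46 to 33.0 FPKM. S100a8 was listed at 0 in DSS_ICB_Fp 2 and DSS_ICB_Fp 5, and Mpo was at or near 0 in all libraries. The sum was highest in DSS_ICB 3 and DSS_ICB 5, the mice with the highest Ptgs2. It was lowest of its group in DSS_ICB 2, which held the third place for Ptgs2, and in DSS 3, the second highest DSS mouse for Ptgs2, with Ly6g or without it.

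The 8 fibroblast markers summed to 291 to 427 FPKM in DSS, 399 to 740 FPKM in DSS_ICB and 229 to 436 FPKM in DSS_ICB_Fp, with 692 FPKM in DSS_ICB 3 and 740 FPKM in DSS_ICB 5. Of the 7 tested, 4 had an unadjusted p under 0.05 with higher values in DSS_ICB than in DSS, and 6 with lower values in DSS_ICB_Fp than in DSS_ICB. The 8 endothelial markers summed to 25.6 to 58.0 FPKM in DSS, 48.9 to 115 FPKM in DSS_ICB and 29.3 to 48.2 FPKM in DSS_ICB_Fp, with 115 and 97.0 FPKM in DSS_ICB 3 and DSS_ICB 5. Of these, 6 had an unadjusted p under 0.05 as higher in the first comparison and 7 as lower in the next. The 5 erythroid markers summed to 56.4 to 352 FPKM in DSS, 133 to 1151 FPKM in DSS_ICB and 26.4 to 244 FPKM in DSS_ICB_Fp. All 5 had an unadjusted limma p under 0.05 as higher in the first comparison and as lower in the next. At that threshold 7.08% of all genes were higher in the first comparison and 12.4% lower in the next. None of the fibroblast, endothelial or erythroid markers passed after adjustment. The part of these cells and of neutrophils in the Ptgs2 values was not tested. In whole tissue, fewer cells of a type and less RNA per cell cannot be told apart.

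Ptgs2 has close neighbours. The gene Ptgs2os starts 68 bases away on the other strand and does not overlap Ptgs2. It did not exceed 0.132 FPKM, and Ptgs2os2 ranged from 0 to 1.15 FPKM. Pla2g4a, which supplies the substrate of the enzyme, starts 138741 bases from Ptgs2 on the opposite strand, and no protein-coding gene lies between them. The Pearson r between their log2 levels was -0.11 over 15 libraries and 0.33 over the 13 without DSS_ICB 3 and DSS_ICB 5.

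PGE2 synthesis downstream of the cyclooxygenases was represented by Ptges and Ptges2. Ptges (ENSMUSG00000050737), the inducible microsomal synthase that is coupled to COX-2, had 3.33, 3.12, 3.71, 2.33 and 2.60 FPKM in DSS. In DSS_ICB it had 3.46, 5.37, 7.19, 3.003 and 10.3 FPKM, and in DSS_ICB_Fp 2.47, 3.04, 2.25, 2.72 and 3.15 FPKM. DSS_ICB 2, 3 and 5 lay above all mice of the other groups, while DSS_ICB 1 and 4 lay within the DSS range. The log2 difference was 0.68 ± 0.23 (SE, limma adjusted p = 0.418) in DSS_ICB against DSS and 0.28 without DSS_ICB 3 and DSS_ICB 5. For DSS_ICB_Fp against DSS_ICB it was -0.78 ± 0.23 (SE, limma adjusted p = 0.103) and -0.39 without the 2 libraries. It passed when DSS_ICB 1 was left out (limma adjusted p = 0.0464).

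Ptges2 (ENSMUSG00000026820), a membrane-associated protein also named as a PGE2 synthase, had 4.50 ± 0.388 FPKM in DSS, 4.25 ± 1.36 FPKM in DSS_ICB and 5.12 ± 0.774 FPKM in DSS_ICB_Fp (SD, n = 5). All groups overlapped. The log2 difference was -0.10 ± 0.15 (SE, limma adjusted p = 0.798) in DSS_ICB against DSS, and 0.10 without DSS_ICB 3 and DSS_ICB 5. Against DSS_ICB, the gavaged mice had 0.25 ± 0.15 (limma adjusted p = 0.357) and 0.04 without the 2 libraries.

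Breakdown of PGE2 was represented by Hpgd (ENSMUSG00000031613), which encodes 15-hydroxyprostaglandin dehydrogenase and lies on chromosome 8 of GRCm38 from 56294585 to 56321043. In DSS it was 75.8, 85.6, 65.6, 86.5 and 74.3 FPKM. In DSS_ICB it was 67.0, 63.0, 8.98, 49.8 and 17.0 FPKM. In DSS_ICB_Fp it was 109, 95.7, 95.7, 54.6 and 114 FPKM. Of the DSS_ICB mice, 4 lay below every DSS mouse and DSS_ICB 1 lay just above the lowest, while gavaged mouse 4 lay within the DSS_ICB range and the other 4 above all DSS and DSS_ICB mice. The mean was 77.5 ± 8.70 FPKM in DSS, 41.1 ± 26.6 FPKM in DSS_ICB and 93.8 ± 23.4 FPKM in DSS_ICB_Fp (SD, n = 5).

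The log2 difference of Hpgd in DSS_ICB against DSS was -1.24 ± 0.44 (SE, limma adjusted p = 0.426), with an exact permutation p of 0.0159 (0.545 adjusted over all genes). It was -0.81 without DSS_ICB 3 and -0.37 without DSS_ICB 3 and DSS_ICB 5 (limma adjusted p = 0.628). For DSS_ICB_Fp against DSS_ICB it was 1.47 ± 0.44 (SE, limma adjusted p = 0.105), with an exact permutation p of 0.0238 (0.251 adjusted). It passed without DSS_ICB 1 (limma adjusted p = 0.046) and was 0.61 without DSS_ICB 3 and DSS_ICB 5 (limma adjusted p = 0.191).

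Colonocyte markers were low in part of the same mice. All 12 had lower mean log2 values in DSS_ICB than in DSS and 11 of 12 had higher ones in DSS_ICB_Fp than in DSS_ICB, with 0 passing in either. Without DSS_ICB 3 and DSS_ICB 5, Car1 (0.002) and Cdx2 (0.19) were not lower in DSS_ICB than in DSS. The other markers stayed lower, from -0.01 for Epcam to -0.91 for Slc26a3. In DSS_ICB_Fp against DSS_ICB no colonocyte marker changed its sign without the 2 libraries. Set against Epcam, a gene of all epithelial cells, Hpgd was 10.6% to 15.3% of its FPKM in DSS and 8.63% to 19.97% in DSS_ICB_Fp. In DSS_ICB it was 10.7%, 9.87%, 10.8%, 9.80% and 3.59% in mice 1 to 5. DSS_ICB 1 and DSS_ICB 3 thus lay within the DSS range, and DSS_ICB 2, DSS_ICB 4 and DSS_ICB 5 lay below it. In DSS_ICB 3 Epcam was 83.0 FPKM. DSS_ICB 5 had the lowest ratio of all, at an Epcam level of 472 FPKM. The part of epithelial loss in the Hpgd values was not tested beyond this ratio.

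Set against each other, the gene that starts PGE2 synthesis and the gene that ends its action reversed their order in 2 mice. Ptgs2 per Hpgd was 2.46 in DSS_ICB 3 and 2.90 in DSS_ICB 5. In the other 13 mice it was 0.0152 to 0.269, with DSS_ICB 2 the highest. The gavaged mice had 0.0152 to 0.0501 and the DSS mice 0.0169 to 0.141. DSS_ICB 3 had a summed colonocyte marker level of 584 FPKM, and its Hpgd share of Epcam, 10.8%, lay within the DSS range. The part of epithelial loss in the ratio of Ptgs2 to Hpgd was not tested.

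**Figure D2:**
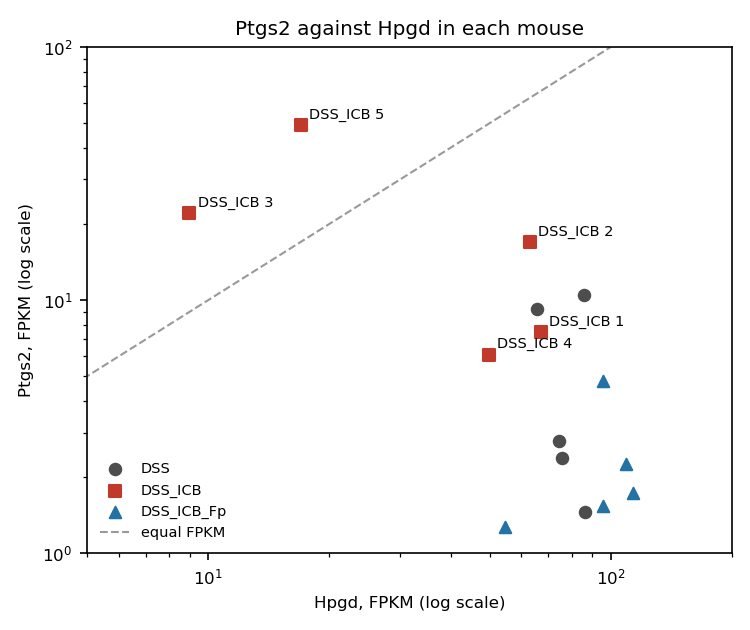
Ptgs2 (y axis) against Hpgd (x axis) in each mouse, both in FPKM on log scales; symbols are the 3 groups, the DSS_ICB mice are numbered and the dashed line marks equal FPKM. DSS_ICB 3 and DSS_ICB 5 lie above the line, with ratios of 2.46 and 2.90, and the other 13 mice lie below it.

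PGE2 reception was represented by Ptger4 and Ptger2, which encode the EP4 and EP2 receptors, both coupled to cyclic AMP. Ptger4 (ENSMUSG00000039942) varied little, at 2.90 ± 0.261 FPKM in DSS, 3.24 ± 0.784 FPKM in DSS_ICB and 2.98 ± 0.318 FPKM in DSS_ICB_Fp (SD, n = 5), and all groups overlapped. The log2 difference was 0.10 ± 0.13 (SE, limma adjusted p = 0.741) in DSS_ICB against DSS and -0.08 ± 0.13 (limma adjusted p = 0.753) in DSS_ICB_Fp against DSS_ICB, and 0.10 and -0.07 without DSS_ICB 3 and DSS_ICB 5. Ptger2 (ENSMUSG00000037759) was below the filter and was not tested in the fit. It reached 1 FPKM in 2 libraries, at 2.85 FPKM in DSS_ICB 3 and 2.02 FPKM in DSS_ICB 5, and was 0.315 to 0.771 FPKM in the other 13.

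The leukotriene arm was represented by Alox5ap and Alox5. Alox5ap (ENSMUSG00000060063), the 5-lipoxygenase activating protein that hands arachidonic acid to the enzyme, lies on chromosome 5 of GRCm38 from 149264767 to 149288153. In DSS it was 5.84, 4.37, 5.49, 4.40 and 3.40 FPKM. In DSS_ICB it was 5.73, 4.98, 14.0, 7.81 and 18.8 FPKM, and in DSS_ICB_Fp 2.95, 2.85, 3.74, 3.81 and 3.07 FPKM. All DSS_ICB mice lay above all gavaged mice, and DSS_ICB 3, 4 and 5 lay above all DSS mice. The mean was 4.70 ± 0.977 FPKM in DSS, 10.3 ± 5.94 FPKM in DSS_ICB and 3.29 ± 0.456 FPKM in DSS_ICB_Fp (SD, n = 5).

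The log2 difference of Alox5ap was 0.84 ± 0.27 (SE, limma adjusted p = 0.418) in DSS_ICB against DSS, with an exact permutation p of 0.0397, and 0.33 without DSS_ICB 3 and DSS_ICB 5. In DSS_ICB_Fp against DSS_ICB it was -1.24 ± 0.27 (SE, limma adjusted p = 0.0712), with an exact permutation p of 0.00794 (0.233 adjusted over all genes). Leaving out DSS_ICB 1, DSS_ICB 2 or DSS_ICB_Fp 4 brought the limma adjusted p to 0.0303, 0.0367 and 0.0382, which passes. Without DSS_ICB 3 and DSS_ICB 5 the difference was -0.73 (limma adjusted p = 0.165), and a fit of these 2 groups alone gave an adjusted p of 0.212. Neutrophils and macrophages express this gene. The 10 macrophage markers summed to 187 to 269 FPKM in DSS, 202 to 552 FPKM in DSS_ICB and 140 to 220 FPKM in DSS_ICB_Fp. The highest macrophage sum was in DSS_ICB 5. DSS_ICB 3, with the second highest Alox5ap, had the lowest macrophage sum of its group, 202 FPKM, and the highest neutrophil sum. Neither cell type's part in the Alox5ap values was tested.

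Alox5 (ENSMUSG00000025701), the lipoxygenase itself, was below the filter and was not tested. It was 0.495 to 0.607 FPKM in DSS, 0.267 to 1.84 FPKM in DSS_ICB and 0.243 to 0.660 FPKM in DSS_ICB_Fp. It reached 1 FPKM in DSS_ICB 5 alone, the mouse with the highest Alox5ap. Alox5ap exceeded Alox5 per transcript length by 4.66 to 18.6 times in every library.

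Groups without overlap were counted over the 8 tested members. In DSS_ICB_Fp against DSS_ICB, 2 members were lower without overlap (Ptgs2, Alox5ap), beside 2.46% of all genes, and 0 were higher, beside 0.945%. In DSS_ICB against DSS, 0 were higher, beside 1.21%, and 0 were lower, beside 0.327%. In DSS_ICB_Fp against DSS there were 0, beside 0.389%. For that last comparison the log2 difference was -0.73 ± 0.53 for Ptgs2, -0.40 ± 0.27 for Alox5ap and 0.23 ± 0.44 for Hpgd (SE, limma adjusted p = 1.0 each). For Alox5ap the unadjusted limma p there was 0.162, and the exact permutation p was 0.0238 (0.92 adjusted over all genes).

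**Figure D3:**
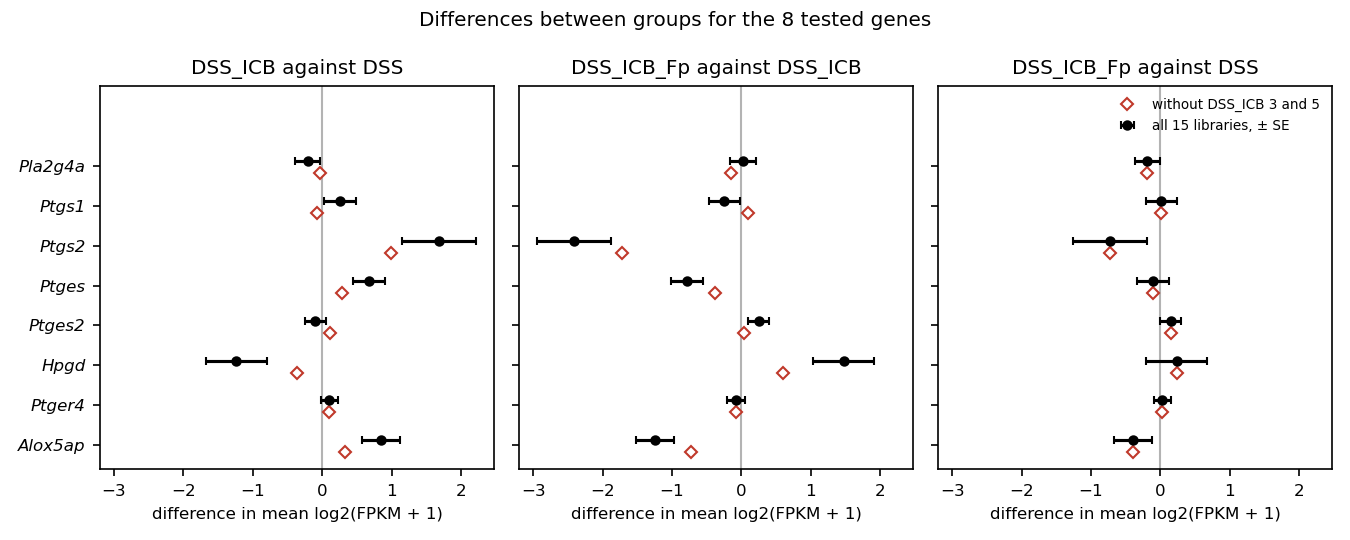
Difference in mean log2(FPKM + 1) (x axis) of the 8 tested genes (y axis) in the 3 comparisons; filled points with bars are limma values ± SE over all 15 libraries, and open diamonds are the values without DSS_ICB 3 and DSS_ICB 5. Ptgs2 has the largest values, 1.68 in DSS_ICB against DSS and -2.41 in DSS_ICB_Fp against DSS_ICB, and Hpgd lies on the other side of 0 in both.

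The other genes of the pathways were taken from a list of 40 by role, of which 25 passed the filter. None passed the adjusted test in any of the 3 comparisons (0 of 25 each) with limma. With sample quality weights, 4 passed in DSS_ICB_Fp against DSS_ICB (Ggt5, Cbr1, Pla2g2a, Ptges3), beside 6.7% of all genes. At an unadjusted p under 0.05, 5 were higher (7.08% of all genes) and 2 lower (4.22%) in DSS_ICB against DSS. In DSS_ICB_Fp against DSS_ICB 5 were higher (9.34% of all genes) and 3 lower (12.4%), and in DSS_ICB_Fp against DSS there were 0 (1.41%). Their median absolute log2 difference was 0.25, 0.29 and 0.15 in the 3 comparisons.

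In the synthases, Cbr1, a carbonyl reductase that can turn PGE2 into prostaglandin F2 alpha, was 38.3 FPKM in DSS, 17.5 FPKM in DSS_ICB and 39.5 FPKM in DSS_ICB_Fp on average. All 5 DSS_ICB mice lay below all mice of the other groups. Its log2 difference was -1.17 ± 0.30 (SE, limma adjusted p = 0.348) in DSS_ICB against DSS and 1.22 ± 0.30 (limma adjusted p = 0.0802) in DSS_ICB_Fp against DSS_ICB. Without DSS_ICB 3 and DSS_ICB 5 these were -0.75 and 0.80. As a share of Epcam, Cbr1 was 5.02% to 10.3% in DSS and 4.57% to 9.10% in DSS_ICB_Fp. In DSS_ICB mice 1 to 5 it was 4.51%, 3.35%, 8.52%, 3.32% and 2.92%. DSS_ICB 3 thus lay within the DSS range, and the other DSS_ICB mice lay below all mice of both other groups. The part of colonocytes in the Cbr1 values was not tested beyond this ratio. Ptges3, a cochaperone also described as the cytosolic PGE2 synthase, had 0.40 ± 0.17 (SE, limma adjusted p = 0.434) in DSS_ICB against DSS. All 5 DSS_ICB mice lay above all DSS mice. In DSS_ICB_Fp against DSS_ICB it had -0.55 ± 0.17 (SE, limma adjusted p = 0.113), with DSS_ICB_Fp 4, at 80.3 FPKM, within the DSS_ICB range. Without DSS_ICB 3 and DSS_ICB 5 these differences were 0.41 and -0.56. Hpgds, which makes prostaglandin D2, had 0.12 and -0.21, and 0.09 and -0.19 without the 2 libraries.

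In leukotriene conversion, Ggt5, which turns leukotriene C4 into D4, was 1.13 FPKM in DSS, 2.80 FPKM in DSS_ICB and 1.03 FPKM in DSS_ICB_Fp on average. All 5 DSS_ICB mice lay above all mice of the other groups. Its log2 difference was 0.79 ± 0.20 (SE, limma adjusted p = 0.348) in DSS_ICB against DSS and -0.86 ± 0.20 (limma adjusted p = 0.0712) in DSS_ICB_Fp against DSS_ICB, and 0.47 and -0.54 without DSS_ICB 3 and DSS_ICB 5. Dpep1, which turns leukotriene D4 into E4, had 0.64 ± 0.22 (SE, limma adjusted p = 0.129) in the latter, and 0.57 without the 2 libraries. Its level was 12.8 FPKM in DSS_ICB_Fp 5 against 4.55 to 7.74 FPKM in the other gavaged mice. Ltc4s, the leukotriene C4 synthase, had 0.42 and -0.26, and 0.36 and -0.20 without them. Lta4h, on the path to leukotriene B4, had -0.25 and 0.29, and -0.02 and 0.06 without them. The receptor genes Cysltr1 and Ltb4r1 were low: Cysltr1 had 0.19 and -0.42 (limma adjusted p = 0.146 in the latter), or 0.08 and -0.30 without them, and Ltb4r1, below the filter, was 0.824 to 1.85 FPKM in DSS_ICB and 0.420 to 0.747 FPKM in DSS_ICB_Fp.

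In phospholipases and removal, Pla2g10, a secreted phospholipase, was 3.41 FPKM in DSS_ICB 3 and 18.1 FPKM in DSS_ICB 5, against 37.4 to 62.3 FPKM in the other 13 mice. Its log2 difference in DSS_ICB against DSS was -0.99, and -0.05 without these 2 libraries. In DSS_ICB_Fp against DSS_ICB it was 1.15, and 0.22 without them. As a share of Epcam, Pla2g10 was 6.81% to 9.32% in DSS and 7.61% to 9.95% in DSS_ICB_Fp. In DSS_ICB mice 1 to 5 it was 6.96%, 7.80%, 4.11%, 8.34% and 3.83%. The part of epithelial loss in these values was not tested. Pla2g12a, another secreted phospholipase, had 0.58 (limma adjusted p = 0.418) in DSS_ICB against DSS, and 0.40 without the 2 libraries. In DSS_ICB_Fp against DSS_ICB it had -0.34, and -0.16 without them. Ptgr2, which acts on the product of the Hpgd enzyme, had -0.43 in DSS_ICB against DSS and 0.47 in DSS_ICB_Fp against DSS_ICB, and -0.19 and 0.22 without them. Slco2a1, the prostaglandin uptake transporter, had 0.23 and -0.01, and 0.08 and 0.14 without them.

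**Figure D4:**
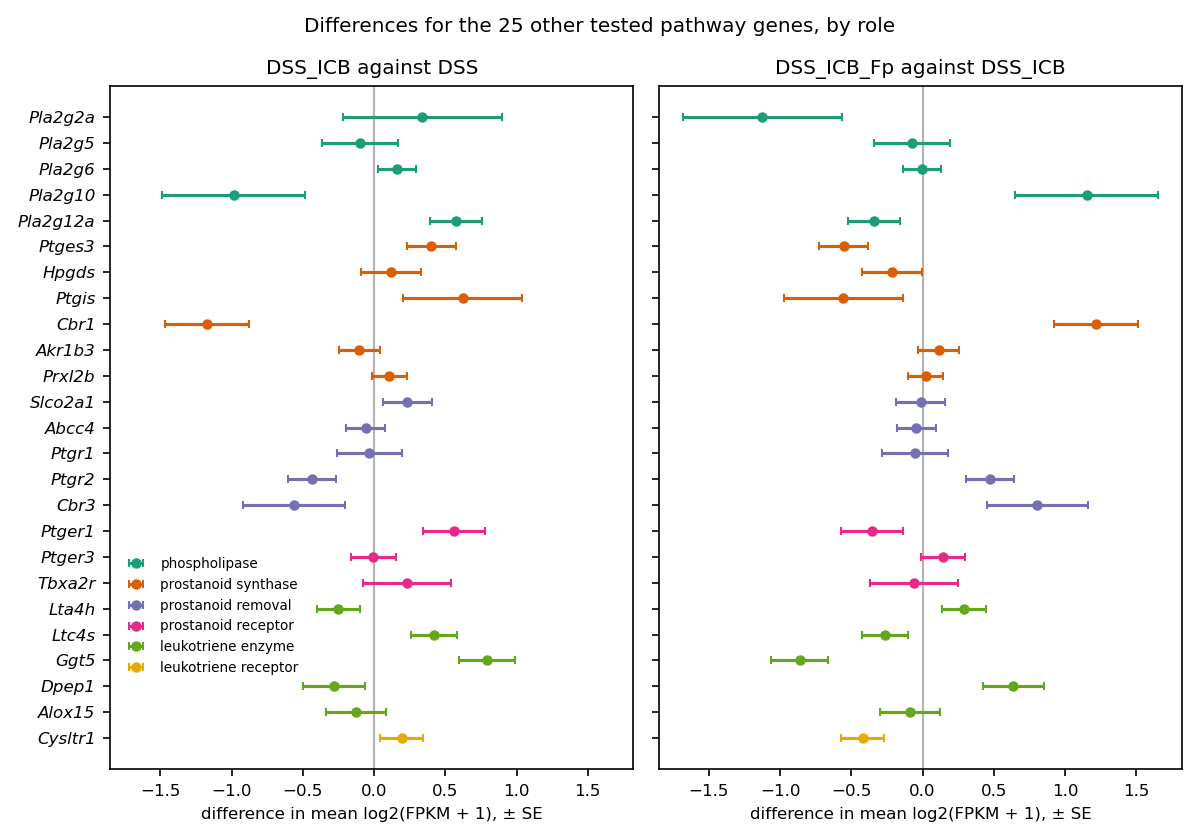
Difference in mean log2(FPKM + 1) with its SE (x axis) of the 25 other tested pathway genes (y axis) in the 2 comparisons that involve DSS_ICB, coloured by role. Cbr1 (-1.17 and 1.22) and Ggt5 (0.79 and -0.86) have the smallest p-values, and none of the 25 passes the adjusted test.

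The genes most like 3 members across libraries were taken by the highest Pearson r of log2(FPKM + 1) among tested genes outside the pathway lists. For Ptgs2 they were Egr2 (r = 0.94), Plau (0.93) and Nr4a2 (0.92) over 15 libraries, and 0.88, 0.86 and 0.86 over the 13 without DSS_ICB 3 and DSS_ICB 5. For Hpgd they were Ehhadh, Cyp2c68 and Akr1c14 (0.99 each), and 0.95, 0.94 and 0.93 over the 13. For Alox5ap they were Slc15a3 (0.99), Srgn (0.98) and Pstpip1 (0.97), and 0.94, 0.93 and 0.90 over the 13. All points share the 3 treatments and the makeup of the tissue piece, so these values describe likeness across these libraries. Among the members, Ptgs2 and Ptges had an r of 0.86 over 15 libraries and 0.68 over 13, and Hpgd and Alox5ap had -0.91 and -0.74.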

How the data were processed

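Per the submitters' processing notes, reads were checked with FastQC, aligned with STAR 2.5 to mm10 and turned into expression values with Cuffnorm, and DESeq was named without a role. The deposited values, 1 table per mouse, were taken as FPKM made by the authors, because of Cuffnorm and because they are not whole numbers. Any further scaling between libraries is not given in the sources used here. FPKM divides by the library total, so a rise of a few abundant genes lowers all others. Whole reads could not be recovered, so no count test was used, and the estimated depths hold only without further scaling. The labels describe separate samples of a group, and p-values measure the spread between them.

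Ensembl IDs were matched to GENCODE M21, and 55154 of 55335 had a symbol. All 10 members and 40 listed pathway genes were found, Prxl2b through a RefSeq synonym. limma 3.58.1 in R 4.3.3, with a trended prior and robust fitting, was run once on all genes with at least 1 FPKM in at least 5 of 15 libraries (14385), on log2(FPKM + 1), with 1 mean per group, 3 contrasts and two-sided tests. It was tested on simulated data. The groups share 1 estimate of spread although DSS_ICB varied most, which can make its errors too small. Exact permutation tests used all 252 arrangements of 5 against 5. Alternatives were a pseudocount of 0.1 or 10, a filter at 5 FPKM or none, median-of-ratios and upper-quartile scaling, rescaling without mitochondrially encoded genes, fits of 2 groups, sample quality weights, each library left out, and DSS_ICB 3 and DSS_ICB 5 left out together.

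Members, lists and markers were chosen with earlier results of these data known. Other pathway genes are named where they passed, otherwise as the 3 with the smallest p in each direction of a comparison, plus Lta4h, Ltc4s, Hpgds, Slco2a1 and Ltb4r1. In DSS_ICB_Fp against DSS these were Dpep1, Pla2g12a, Slco2a1, Cysltr1, Pla2g2a and Alox15, with log2 differences between -0.79 and 0.36. Promoter windows came from RefSeq on GRCm38.p6, with 9 of 10 members matched.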

Additional observations from a re-analysis of the deposited data

Results flagged for a closer look

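In 3 of 30 groups of 5 mice, the lowest or highest mouse lay far from the other 4, by a gap that is over 0.71 of the range of the group. Chance flags about 1 in 20 such groups. Ptgs1, the steady cyclooxygenase gene, was 8.96 FPKM in DSS 1 and 5.99 to 6.67 FPKM in the other DSS mice. Hpgd, the gene for the enzyme that breaks down PGE2, was 54.6 FPKM in DSS_ICB_Fp 4 and 95.7 to 114 FPKM in the other gavaged mice. The same mouse had the highest neutrophil marker sum of its group without Ly6g, 33.0 FPKM against 1.46 to 9.30 FPKM, and it had the lowest level of its group for 5 of the 12 colonocyte markers. These were Slc26a3 (25.9 FPKM against 69.0 to 184 FPKM), Car4 (201 against 296 to 451 FPKM), Aqp8 (34.3 against 84.6 to 265 FPKM), Selenbp1 (107 against 195 to 407 FPKM) and Slc26a2 (19.6 against 42.3 to 71.5 FPKM), while the sum of the 12 was 5717 FPKM against 5132 to 6174 FPKM. The part of either cell type in the Hpgd value was not tested. Alox5 was 0.495 FPKM in DSS 5 and 0.590 to 0.607 FPKM in the other DSS mice, a gap of less than 0.1 FPKM.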

How the results depend on the processing

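In DSS_ICB against DSS and in DSS_ICB_Fp against DSS, 0 members and 0 other pathway genes passed under every alternative run. In DSS_ICB_Fp against DSS_ICB, 3 members (Hpgd, Ptgs2, Alox5ap) and 4 other pathway genes (Ggt5, Cbr1, Pla2g2a, Ptges3) passed with sample quality weights, beside 6.7% of all genes. Leaving out 1 library at a time gave 0 to 4 members and 0 to 3 other pathway genes, with 4 members passing without DSS_ICB 1 (beside 4.1% of all genes), 1 without DSS_ICB 2 (Alox5ap; 0.931%), 1 without DSS_ICB 4 (Ptgs2; 0.518%) and 2 without DSS_ICB_Fp 4 (Ptgs2, Alox5ap; 3.18%). Over all alternatives Ptgs2, Ptges, Hpgd and Alox5ap kept their sign in all 3 comparisons. In DSS_ICB_Fp against DSS_ICB the log2 difference ranged from -2.84 to -1.14 for Ptgs2, from -1.44 to -0.56 for Alox5ap, from -0.95 to -0.30 for Ptges and from 0.61 to 1.73 for Hpgd. Differences near 0 changed sign. In DSS_ICB against DSS, Ptgs1 had -0.0059 with sample quality weights and -0.078 without DSS_ICB 3 and DSS_ICB 5, and Ptges2 had 0.10 without both and -0.23 to 0.0016 with 1 library left out. In DSS_ICB_Fp against DSS_ICB, Pla2g4a had -0.098 with weights, -0.16 without both and -0.14 to 0.13 with 1 library left out, Ptgs1 had 0.092 without both, and Ptger4 had -0.16 to 0.0055 with 1 library left out. In DSS_ICB_Fp against DSS, Ptgs1 had -0.0048 after rescaling without mitochondrially encoded genes, -0.027 with weights and -0.11 to 0.11 with 1 library left out, and Ptger4 had -0.011 to 0.059 with 1 library left out. The cause of these changes was not tested. No paired analysis was possible because the mouse numbers were given in accession order and match no mice between groups. With 5 mice a group and DSS_ICB the most variable, small differences could not be detected, and genes below 1 FPKM, such as Alox5 and Ptger2, rest on few fragments.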

Other observations

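Alox12, a platelet-type lipoxygenase gene, was below the filter and was chosen after its values were seen. It was 0.588, 0.814, 0.881, 0.619 and 2.59 FPKM in DSS_ICB mice 1 to 5. All 5 lay above the DSS mice, at 0.159 to 0.448 FPKM, and above the gavaged mice, at 0.0849 to 0.576 FPKM. Ptgir, the prostacyclin receptor gene, was also below the filter, at 2.72 FPKM in DSS_ICB 3 and 2.41 FPKM in DSS_ICB 5 against 0.314 to 1.08 FPKM in the other 13 mice. Ptgis, which makes prostacyclin, was 16.7 FPKM in DSS_ICB 3, the library with the highest smooth muscle markers, against 1.32 to 5.34 FPKM in the other 14. The part of muscle in these values was not tested. Ptgds, a prostaglandin D2 synthase gene, did not exceed 0.0652 FPKM in any library, while Hpgds, the other synthase of the same product, was 1.08 to 4.62 FPKM.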
